A study of Homo sapiens with 6 samples.

Results

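Fatty acid synthesis and desaturation was followed through 10 genes, *ACLY*, *ACACA*, *ACACB*, *FASN*, *SCD*, *ELOVL5*, *ELOVL6*, *FADS1*, *FADS2* and *SREBF1*, taken by symbol from a table of 59050 genes. All 10 were found in the table and all 10 passed the filter on low counts that left 18126 genes for testing. The cells were of HUES8, a widely used line of human embryonic stem cells, sequenced at 3 stages with 2 libraries each: undifferentiated cells (PSC), day 2 of endoderm induction (D2) and definitive endoderm (DE), for which the sample labels name no day. D2 and DE cells had received activin A, a TGF-beta family factor, at 100 ng/mL. The GSK3 inhibitor CHIR99021 was present for the initial 24 h and left out over the following 2 to 4 days according to the labels. The D2 libraries carry the same wording, although their stage of day 2 leaves less time than that after the initial 24 h. The labels write the CHIR99021 dose as 2.5 mM, where the methods of the study have the same figure in µM. PSC cells received neither agent. By the methods of the study the base medium differed too, with mTeSR1 for undifferentiated cells and a DMEM-based medium with bovine serum albumin for induction. In comparisons with PSC, stage and medium therefore cannot be told apart. The RNA was recovered from material that remained once metabolites had been taken out of the cells. All libraries came from 1 cell line, and nothing in the labels says that the libraries of a stage were separate cultures, so the p-values measure the spread between these libraries, which may be technical. Total counts per library were 12351684 and 15849872 in PSC, 15000970 and 14843365 at D2, and 15490713 and 15970973 in DE.

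The stage labels were checked with marker genes. Expression was compared between stages as TMM-normalized CPM, the read count of a gene scaled to the size of its library. In CPM, the endoderm markers *FOXA2*, *SOX17* and *CXCR4* summed to 2.28 and 3.35 in PSC, 89.7 and 85.0 at D2 and 827.9 and 817.7 in DE. *SOX2*, *NANOG* and *POU5F1* (OCT4), the pluripotency markers, summed to 662.5 and 799.0 in PSC, 777.2 and 720.2 at D2 and 215.8 and 221.6 in DE. *TBXT*, a mesoderm and primitive streak marker, stood at 95.2 and 103.6 CPM at D2 and under 2 CPM at the other stages. All 5 adipocyte markers were under 1 CPM in every library, as were *ALB*, *TTR*, *CYP3A4* and *SERPINA1* of the 5 hepatocyte markers. The remaining hepatocyte marker, *APOA1*, was at 15.3 and 21.8 CPM in DE against 0.263 and 0.0643 CPM in PSC, and the list summed to 15.4 and 22.1 CPM in DE. Some markers of other lineages also moved with the stages. The 5 mesoderm markers, led by *TBXT*, summed to 2.37 and 1.99 CPM in PSC, 100.1 and 107.6 CPM at D2 and 4.81 and 4.37 CPM in DE, with *MESP1* and *FOXF1* under 1 CPM throughout. The 4 neural ectoderm markers, led by *NES*, summed to 115.9 and 107.2 CPM in PSC, 229.9 and 204.5 CPM at D2 and 308.1 and 315.9 CPM in DE. *PAX6* was at 147.9 and 146.5 CPM in DE against 1.93 and 2.19 CPM in PSC, while of the same list *ZIC1* was lower in DE, at 10.4 and 8.94 CPM against 26.5 and 24.8 CPM in PSC, and *SOX1* was under 1 CPM in all libraries. *GATA3*, from the trophoblast list, was at 100.3 and 84.5 CPM in DE against 0.438 and 0.901 CPM in PSC, with *CDX2* and *CGA* under 1 CPM throughout and a sum over the 5 markers of 101.3 and 85.2 CPM in DE. The 5 fibroblast markers, led by *THY1*, summed to 113.1 and 123.7 CPM in PSC and 43.3 and 38.1 CPM in DE. *THY1* and *COL1A2* were lower in DE, *COL1A1* was higher, at 37.0 and 32.6 CPM against 12.6 and 12.4 CPM in PSC, and *DCN* and *LUM* were under 1 CPM in all libraries. The part of such cells in the results below was not tested. In bulk RNA, fewer cells of a type and less RNA per cell cannot be told apart.

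Cells make fatty acids in the cytosol from citrate that leaves the mitochondria. ATP citrate lyase (*ACLY*) splits citrate into acetyl-CoA, the acetyl-CoA carboxylases (*ACACA*, cytosolic, and *ACACB*, at the mitochondrial outer membrane) make malonyl-CoA, and fatty acid synthase (*FASN*) joins these units into palmitate. *ELOVL6* lengthens saturated and monounsaturated chains, *SCD* places the initial double bond, and *FADS2*, *ELOVL5* and *FADS1* build polyunsaturated fatty acids from dietary precursors. *SREBF1* encodes SREBP1, a membrane-bound transcription factor that, once cleaved, turns on many of these enzymes, as its relative SREBP2 does for cholesterol synthesis. Malonyl-CoA also blocks entry of fatty acids into mitochondria for oxidation.

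Most of the pathway was lower in DE than in PSC. In DE against PSC, 9 of the 10 genes were lower and 0 higher at an adjusted p under 0.05 in the quasi-likelihood test of edgeR, with p-values adjusted after Benjamini and Hochberg over all genes tested, and *ACLY* was not called. Of all genes tested, 67.8% were called in this comparison and 32.7% were called lower. The median log2 fold change of the 10 genes was -0.98, against 0.02 over all genes tested. With a fold change of at least 2 required as well, 5 were lower (*SCD*, *ACACB*, *SREBF1*, *FADS2* and *ACACA*), where the background was 18.8% of genes. At D2 against PSC, 7 of 10 were lower and 0 higher (background 24.0% lower, 25.9% higher and 49.9% in all), with a median of -0.52, and 3 fell by a fold of at least 2 (background 8.03%), against 1 with scaling by library size alone. In DE against D2, 6 were lower and 1 higher (background 29.3% lower, 30% higher and 59.3% in all), with a median of -0.49, and 1 fell by a fold of at least 2 (background 16.1%), against 2 with upper-quartile scaling. These 3 comparisons share libraries and are not independent of each other. The DE values lay below both PSC values in all 9 called genes, against 40.2% of all genes tested.

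**Figure D1:**
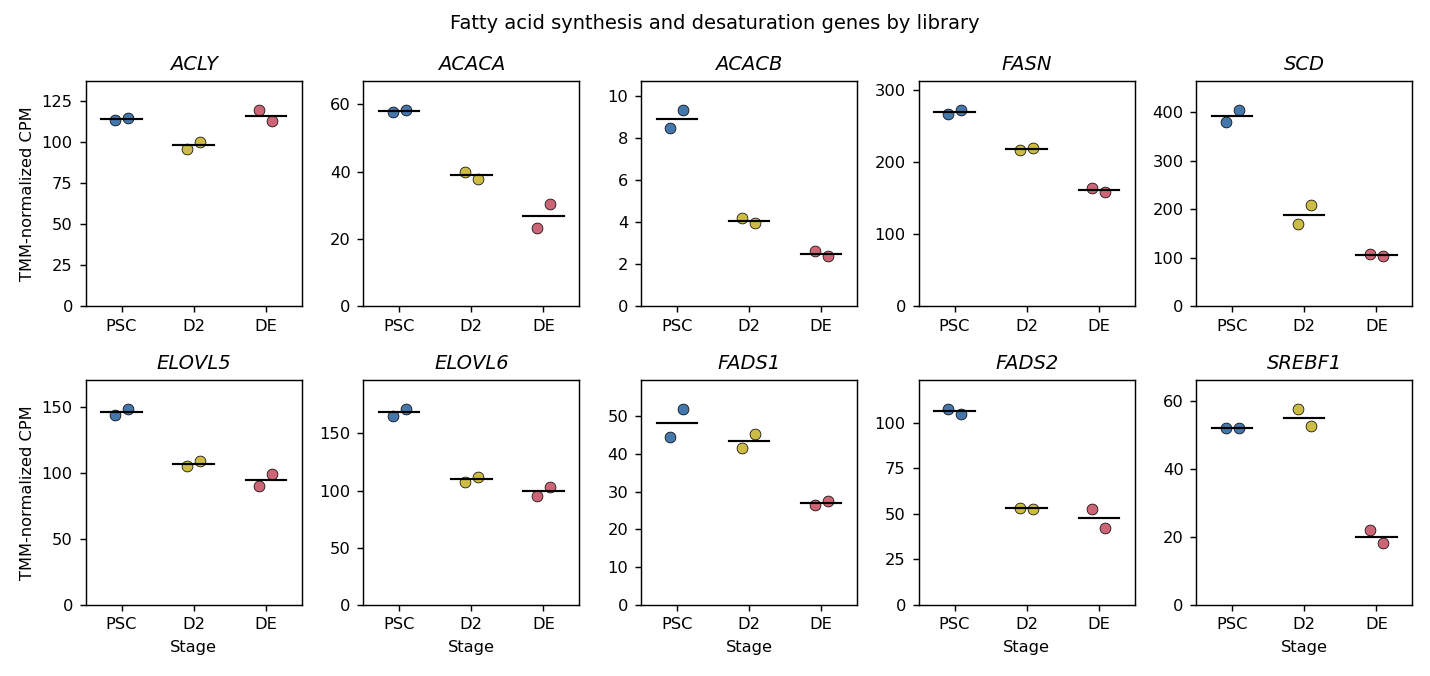
TMM-normalized CPM (y axis, from 0) of each of the 10 genes at PSC, D2 and DE (x axis), with 1 point per library and bars at the means of 2 libraries. Both DE libraries lie below both PSC libraries in every gene other than *ACLY*, whose DE values of 119.3 and 113.0 CPM overlap with the PSC values of 113.6 and 114.6 CPM.

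The genes fell into 4 groups by the steps at which they were called, and the difference between the steps was not tested. *ACACA*, *ACACB*, *FASN* and *SCD* were lower at D2 than in PSC and lower again in DE than at D2. *ELOVL5*, *ELOVL6* and *FADS2* fell by D2 and had no call from D2 to DE, while *FADS1* and *SREBF1* had no call by D2 and fell from D2 to DE. With upper-quartile scaling *ELOVL5*, *ELOVL6* and *FADS2* were also called lower from D2 to DE, at -0.35, -0.32 and -0.33 on the log2 scale, where the median of all genes was -0.19. *ACLY* had no call by D2 and was called higher from D2 to DE.

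Promoter sequence is shown for 4 members whose RNA differed in course: *SCD*, with the largest fitted fall among the 10 genes, *ELOVL5* and *ELOVL6*, with the most similar courses, and *ACLY*, which did not fall in DE. The sequences are from RefSeq, build GRCh38.p14, run from 250 bases before to 50 bases after an annotated start, and are written 5′ to 3′ on the strand of the gene. *SCD* and its region are on the plus strand, the other 3 on the minus strand. Capitals mark CCAAT, the letters of the box bound by NF-Y, or its reverse complement ATTGG.
SCD, chr10:100346983-100347282: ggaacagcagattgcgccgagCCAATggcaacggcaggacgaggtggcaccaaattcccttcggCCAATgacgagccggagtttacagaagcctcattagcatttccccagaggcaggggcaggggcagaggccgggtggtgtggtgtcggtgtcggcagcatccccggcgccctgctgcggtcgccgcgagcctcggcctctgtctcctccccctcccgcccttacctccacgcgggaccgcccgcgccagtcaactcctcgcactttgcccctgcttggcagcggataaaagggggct
ELOVL5, chr6:53348901-53349200: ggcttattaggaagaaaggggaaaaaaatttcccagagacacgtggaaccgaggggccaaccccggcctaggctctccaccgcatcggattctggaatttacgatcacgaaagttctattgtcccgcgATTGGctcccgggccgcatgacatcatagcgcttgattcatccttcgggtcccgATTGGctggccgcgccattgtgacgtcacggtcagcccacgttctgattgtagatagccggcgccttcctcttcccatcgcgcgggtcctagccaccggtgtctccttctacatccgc
ACLY, chr17:41918902-41919201: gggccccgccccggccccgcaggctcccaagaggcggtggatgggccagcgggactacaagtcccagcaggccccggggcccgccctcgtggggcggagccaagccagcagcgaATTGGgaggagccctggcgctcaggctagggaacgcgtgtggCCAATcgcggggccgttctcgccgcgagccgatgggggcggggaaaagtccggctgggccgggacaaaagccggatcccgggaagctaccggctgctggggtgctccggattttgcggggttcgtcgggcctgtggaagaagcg
ELOVL6, chr4:110198566-110198865: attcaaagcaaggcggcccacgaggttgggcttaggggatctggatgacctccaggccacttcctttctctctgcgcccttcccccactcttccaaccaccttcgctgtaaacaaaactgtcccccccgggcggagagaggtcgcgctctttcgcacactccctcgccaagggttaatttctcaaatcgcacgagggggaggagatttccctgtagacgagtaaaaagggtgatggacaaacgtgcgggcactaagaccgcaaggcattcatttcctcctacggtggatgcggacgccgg
A promoter was found for 9 of the 10 genes, with 14 windows in all, and *FASN* had no entry. Some windows of 1 gene overlap, and the 2 of *ACLY* hold the same CCAAT and ATTGG, which the count of windows takes once for each. CCAAT on either strand was present in windows of 6 of the 9 genes and in 8 of the 14 windows (57.1%), against 34.6% of 35116 promoters of the same length and 76.2% of 21 promoters of cholesterol genes. In *SCD* it began at positions -229 and -186 from the start, and in the *ACLY* window shown at -136 and -94. *ELOVL5* held ATTGG at -122 and -68 and *ELOVL6* held none. The sterol-response-like letters TCACNCCAC were in 0 of the 14 windows and in 1.13% of all promoters. The DR4 repeat of the type bound by LXR (AGGTCA, 4 further bases, AGGTCA) was in 0 of 14 and 0.0199%. Both were also in 0 of the 21 promoters of cholesterol genes, many of them SREBP2 targets. The absence of TCACNCCAC therefore cannot tell whether a promoter has an SREBP site. CACGTG was found in *ELOVL5* alone, at -211 (7.26% of all promoters), and GGGCGG in 10 of the 14 windows (71.4%), against 45.0% of all promoters and 63.6% of promoters of genes tested. These are matches of letters on both strands, which show no binding, and each absence covers only these windows.

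*ACLY* (chromosome 17, 41866917 to 41930542, minus strand, GRCh38, GENCODE version 44) makes the acetyl-CoA on which the pathway draws. It was at 113.6 and 114.6 CPM in PSC, 95.9 and 100.2 CPM at D2, and 119.3 and 113.0 CPM in DE. The D2 libraries were the lowest, and the DE and PSC libraries overlapped. In DE against PSC its log2 fold change was 0.03, with a 95% confidence interval of -0.16 to 0.22 (edgeR adjusted p = 0.815), and at D2 against PSC it was -0.22 (edgeR adjusted p = 0.0528). The rise from D2 to DE was 0.24 (standard error 0.093, edgeR adjusted p = 0.0249) and was not called with upper-quartile scaling (0.07, adjusted p = 0.521), library size alone (0.0578), at least 10 counts in every library (0.0641) or the 2 stages alone (0.0624). It was also not called without D2 replicate 1 (adjusted p = 0.16), D2 replicate 2 (0.0656) or DE replicate 1 (0.0696), and the D2 value against PSC was called without DE replicate 1 (adjusted p = 0.0312) or DE replicate 2 (0.0316), with the size factors of DESeq2 (0.037) and with the 2 stages alone (0.0362).

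Of 8 genes that supply carbon and NADPH, 2 were higher and 3 lower in DE than in PSC, with a median log2 fold change of -0.08, and these shares are near the 35.1% higher and 32.7% lower of all genes tested. *SLC25A1*, the carrier that brings citrate out of mitochondria, was at 20.9 and 23.1 CPM in PSC and 43.5 and 41.0 CPM in DE, a log2 fold change of 0.94 (standard error 0.122, edgeR adjusted p = 1.3e-07). *ACSS2*, which makes acetyl-CoA from acetate, was at 15.4 and 18.7 CPM in PSC, 7.15 and 6.15 CPM at D2, and 7.55 and 6.82 CPM in DE, a log2 fold change in DE of -1.25 (edgeR adjusted p = 6.5e-08). *ME1*, the cytosolic malic enzyme, fell by 0.75 on the log2 scale (edgeR adjusted p = 0.00016). The citrate carrier was therefore higher in DE and the acetate enzyme lower, beside a level of *ACLY* that was not called.

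*ACACA* (chromosome 17, 37084992 to 37406836, minus strand) was at 57.8 and 58.2 CPM in PSC, 40.0 and 37.9 CPM at D2, and 23.1 and 30.4 CPM in DE. The stages did not overlap, and the DE libraries differed more from each other than those of the other stages. Its log2 fold change was -0.58 by D2 and -0.54 from D2 to DE, and -1.12 in DE against PSC (standard error 0.115, edgeR adjusted p = 1.6e-09). *ACACB* (chromosome 12, 109116587 to 109268226, plus strand) was low at all stages, with 97 and 145 counts in PSC, 64 and 61 at D2, and 43 and 37 in DE. Its levels of 8.50 and 9.33 CPM in PSC fell to 4.2 and 3.95 CPM at D2 and 2.62 and 2.38 CPM in DE, a log2 fold change of -1.83 (standard error 0.211, edgeR adjusted p = 1.3e-08). The step from D2 to DE (-0.70, edgeR adjusted p = 0.0106) was not called by DESeq2 (adjusted p = 0.133), without D2 replicate 1 (0.0511) or without DE replicate 2 (0.0631).

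Both carboxylases thus fell while *MLYCD*, malonyl-CoA decarboxylase, which breaks malonyl-CoA down, rose. *MLYCD* was named after its values were seen. It was at 11.1 and 13.4 CPM in PSC, 15.2 and 16.8 CPM at D2, and 35.9 and 35.3 CPM in DE, a log2 fold change in DE of 1.53 (standard error 0.128, edgeR adjusted p = 2.5e-11). Levels of different genes were compared per length, as CPM per kilobase of the deposited gene length. That length was at or near the exonic bases of all annotated transcripts together, 16177 against 16792 for *MLYCD* and 10553 in both for *FADS2*. It may exceed the length of the RNA present, so levels and ratios between genes are approximate. On this scale the ratio of *MLYCD* to *ACACA* was 0.155 and 0.185 in PSC, 0.305 and 0.358 at D2, and 1.25 and 0.934 in DE. The ratio to *ACACB* was 1.17 and 1.29 in PSC and 12.3 and 13.3 in DE. The ratio of *ACACA* to *ACACB* was 7.58 and 6.95 in PSC, 10.6 and 10.7 at D2, and 9.82 and 14.2 in DE, so the D2 and DE libraries overlapped. With 2 libraries against 2, an exact permutation test of a ratio cannot give a p below 0.33, and none was run.

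*FASN* (chromosome 17, 82078338 to 82098294, minus strand) had 266.4 and 271.4 CPM in PSC, 217.0 and 219.7 CPM at D2, and 164.1 and 158.6 CPM in DE. The 3 stages were apart, and the replicates of each lay close together. It was 1.67-fold lower in DE than in PSC (log2 fold change -0.74, standard error 0.094, edgeR adjusted p = 9.9e-08). The step from D2 to DE was -0.44 (edgeR adjusted p = 0.00026). The earlier step (-0.30, edgeR adjusted p = 0.00901) was not called with scaling by library size alone (-0.19, adjusted p = 0.0958), without PSC replicate 2 (0.0669), D2 replicate 1 (0.0899) or D2 replicate 2 (0.0624). *MID1IP1*, whose product promotes polymerization of the carboxylases, was at 31.8 and 36.9 CPM in PSC and 148.8 and 129.0 CPM in DE (log2 fold change 2.01, edgeR adjusted p = 1.4e-15).

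*SCD* (chromosome 10, 100347233 to 100364826, plus strand), which makes oleate from stearate, had the largest fitted fall of the 10 genes, with *ACACB* close behind. It was at 380.1 and 404.2 CPM in PSC, 169.2 and 208.9 CPM at D2, and 107.7 and 104.5 CPM in DE. Every D2 library lay below every PSC library and above every DE library. It was 3.70-fold lower in DE than in PSC (log2 fold change -1.89, standard error 0.107, edgeR adjusted p = 4.9e-15), with -1.05 by D2 and -0.83 from D2 to DE. The other stearoyl-CoA desaturase, *SCD5*, went the opposite way. It had 5 and 10 counts in PSC, 14 and 19 at D2, and 114 and 116 in DE, or 6.94 and 7.46 CPM in DE, a log2 fold change of 3.68 (standard error 0.326, edgeR adjusted p = 7.2e-11). *SCD* nevertheless remained the more abundant of the pair per length, by 699.9 and 506.8 times in PSC, 148.6 and 137.0 times at D2, and 12.5 and 11.3 times in DE.

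*ELOVL6* (chromosome 4, 110045846 to 110199199, minus strand) was at 165.4 and 171.4 CPM in PSC, 107.8 and 111.8 CPM at D2, and 95 and 103.4 CPM in DE. *ELOVL5* (chromosome 6, 53267398 to 53349179, minus strand) was at 144.5 and 148.7 CPM in PSC, 105.1 and 109.0 CPM at D2, and 90.2 and 99.4 CPM in DE. Both elongases were called lower by D2 and in DE against PSC, where *ELOVL6* fell by 0.76 (edgeR adjusted p = 4.7e-08) and *ELOVL5* fell by 0.63 on the log2 scale (edgeR adjusted p = 1.3e-06). From D2 to DE the log2 fold changes were -0.15 (95% confidence interval -0.34 to 0.05) and -0.18 (-0.37 to 0.02), neither of them called. Both were called with upper-quartile scaling (adjusted p = 0.00564 and 0.00289), and *ELOVL5* also with a filter of at least 10 counts in every library (-0.23, adjusted p = 0.0331). *ELOVL2*, which extends the longer polyunsaturated chains, rose at both steps, from 2.89 and 3.67 CPM in PSC to 12.5 and 12.2 CPM at D2 and 65.9 and 65.7 CPM in DE, where the log2 fold change against PSC reached 4.30 (standard error 0.145, edgeR adjusted p = 3.9e-20). Per length, *ELOVL5* exceeded *ELOVL2* by 52.3 and 42.4 times in PSC and by 1.43 and 1.58 times in DE.

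Of the 10 other elongation genes tested, 3 were higher, 3 lower and 4 not called in DE against PSC, near the background of 35.1% higher and 32.7% lower. *HSD17B12*, the ketoacyl-CoA reductase of the elongation cycle, was 2.38-fold lower (log2 fold change -1.25, edgeR adjusted p = 3.6e-12). *ELOVL7* fell by 1.10 (edgeR adjusted p = 3.7e-06) and *HACD1*, a dehydratase of the cycle, rose by 0.71 on the log2 scale (edgeR adjusted p = 5.5e-05). The median log2 fold change of these 10 genes, which do not include *ELOVL5* and *ELOVL6*, was 0.08.

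*FADS2* (chromosome 11, 61792980 to 61867354, plus strand), which opens polyunsaturated fatty acid synthesis, was at 107.4 and 104.7 CPM in PSC, 53.2 and 52.7 CPM at D2, and 52.5 and 42.3 CPM in DE. It was called lower by D2, at 49.9% of the PSC level (standard error 0.102 on the log2 scale, edgeR adjusted p = 3.6e-09), and in DE against PSC at -1.16 (edgeR adjusted p = 8.7e-11). From D2 to DE it was -0.16 (edgeR adjusted p = 0.201), a value set by DE replicate 2, without which it was 0.01. Without DE replicate 1 the same step was -0.31 and was called (adjusted p = 0.0253). *FADS1* (chromosome 11, 61799627 to 61829318, minus strand), which acts later in the route, was at 44.4 and 51.9 CPM in PSC, 41.5 and 45.4 CPM at D2, and 26.4 and 27.5 CPM in DE. Its PSC and D2 libraries overlapped, and the fall came between D2 and DE, at -0.69 (standard error 0.109, edgeR adjusted p = 4.7e-06). The ratio of *FADS1* to *FADS2* per length was 0.427 and 0.512 in PSC, 0.805 and 0.888 at D2, and 0.518 and 0.671 in DE. The 2 genes share 490 exonic bases on opposite strands, and the strand setting of the counting is not given in the sources used here, so reads in that stretch cannot be told apart.

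**Figure D2:**
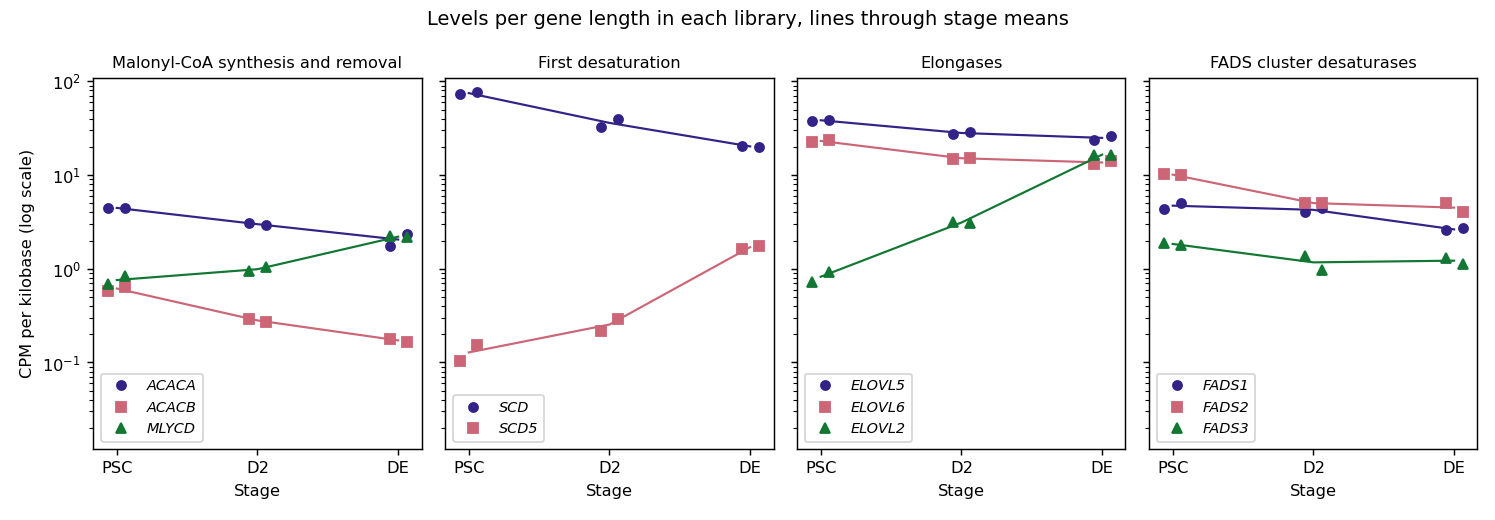
CPM per kilobase of gene length on a log scale (y axis) at each stage (x axis) for malonyl-CoA genes, stearoyl-CoA desaturases, elongases and the FADS desaturases, with 1 point per library and lines through the stage means. *SCD5* and *ELOVL2* rise from PSC to DE while *SCD*, *ELOVL5* and *ELOVL6* fall. On this scale, which depends on the deposited lengths, *MLYCD* reaches the level of *ACACA* in DE.

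*FADS1* and *FADS2* sit in a cluster with *FADS3*, a desaturase of sphingoid bases. *FADS3* was at 11.8 and 11.3 CPM in PSC, 8.60 and 6.15 CPM at D2, and 8.16 and 7.14 CPM in DE, a log2 fold change in DE of -0.59 (edgeR adjusted p = 0.00317) that DESeq2 did not call (adjusted p = 0.0732). *MYRF*, *FEN1*, *RAB3IL1* and *FTH1* were higher in DE than in PSC, by 3.12, 0.55, 1.76 and 1.95 on the log2 scale, with edgeR adjusted p-values from 4.5e-15 to 0.00011. *TMEM258* was at 51.7 and 49.0 CPM in PSC and 41.9 and 58.0 CPM in DE, with a log2 fold change of -0.01 (edgeR adjusted p = 0.938) whose sign changed with DESeq2 and with scaling by library size. *BEST1* did not pass the filter on low counts. Of the 8 neighborhood genes tested, the members included, 4 were higher, 3 lower and 1 was not called, beside 35.1% higher and 32.7% lower of all genes tested.

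*CYB5A*, the cytochrome b5 that passes electrons to the desaturases, was at 56.3 and 49.5 CPM in PSC and 21.4 and 26.7 CPM in DE, a log2 fold change of -1.14 (edgeR adjusted p = 2.2e-09). *CYB5R3*, a reductase of cytochrome b5, rose from 16.5 and 14.1 CPM to 61.5 and 55.7 CPM, a log2 fold change of 1.95 (edgeR adjusted p = 6.6e-14). Of 8 other desaturation genes tested, 4 were higher and 2 lower in DE than in PSC, where 35.1% and 32.7% of all genes were.

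*SREBF1* (chromosome 17, 17810399 to 17837002, minus strand) was at 52.1 CPM in both PSC libraries, 57.7 and 52.6 CPM at D2, and 22 and 18.1 CPM in DE. At D2 the log2 fold change against PSC was 0.08 (95% confidence interval -0.13 to 0.30, edgeR adjusted p = 0.538), and the fall was called from D2 to DE (-1.46, standard error 0.112, edgeR adjusted p = 7.9e-12). The 7 genes called lower at D2 fell at a step at which *SREBF1* RNA had no call. Cleavage of SREBP1 was not measured, and the part of *SREBF1* in this fall was not tested. *SREBF1* shares 556 exonic bases with *RAI1* on the opposite strand, 6.752% of its exonic bases, and *RAI1* had 2240 counts over all libraries. *SREBF2*, which encodes SREBP2, had the same sequence of calls, from 73.4 and 79.3 CPM in PSC and 79.6 and 82.2 CPM at D2 to 49.7 and 47.1 CPM in DE. The log2 fold change of *SREBF2* was 0.08 at D2 (edgeR adjusted p = 0.495) and -0.74 from D2 to DE (edgeR adjusted p = 1.9e-07).

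*INSIG1*, which holds the SREBPs in the endoplasmic reticulum and is itself an SREBP target, was at 35.0 and 38.2 CPM in PSC, 22.8 and 26.9 CPM at D2, and 7.79 and 6.63 CPM in DE. It fell at both steps, and its log2 fold change in DE against PSC was -2.34 (standard error 0.138, edgeR adjusted p = 1.1e-14). *INSIG2* fell by 0.66 on the log2 scale (edgeR adjusted p = 0.00154). *SCAP*, the escort protein of the SREBPs, was at 24.3 and 21.5 CPM in PSC and 18.5 and 17.4 CPM in DE, a log2 fold change of -0.34 (edgeR adjusted p = 0.0162). That call was lost with DESeq2, with scaling by library size alone, and without PSC replicate 1 or DE replicate 2, where the value was -0.25 and -0.29. *NR1H3*, the LXR-alpha gene, rose by 1.11 on the log2 scale in DE (edgeR adjusted p = 6.9e-06). Of 21 regulators tested, 8 were higher, 9 lower and 4 not called in DE against PSC (background 35.1% higher and 32.7% lower), with a median of -0.05.

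**Figure D3:**
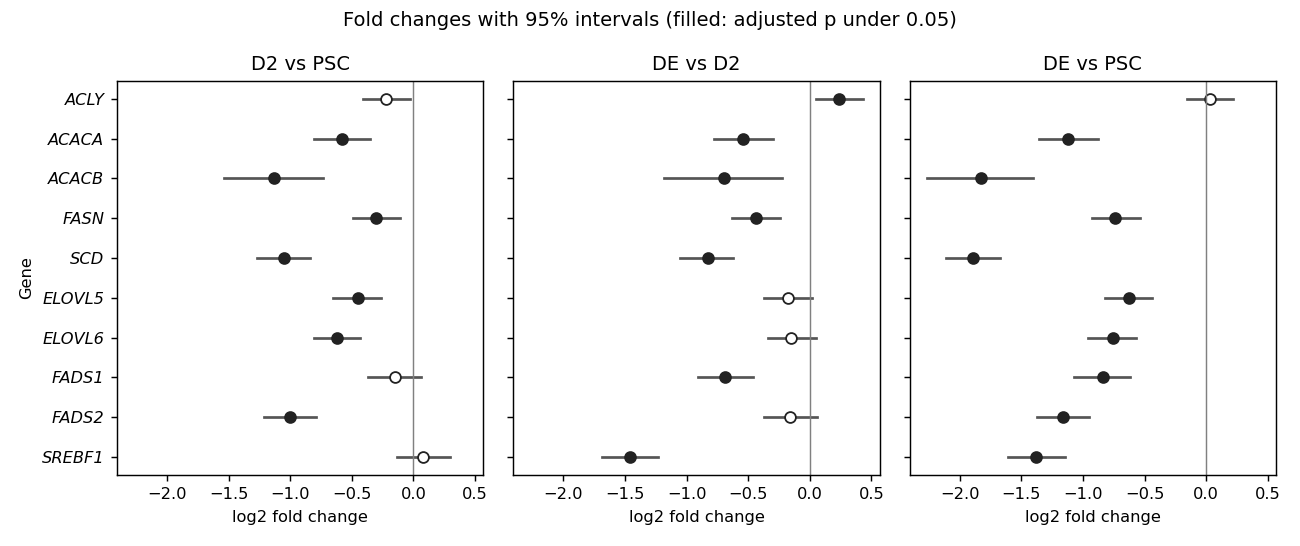
Fitted log2 fold change (x axis) with its 95% confidence interval for each of the 10 genes (y axis) at D2 against PSC, in DE against D2 and in DE against PSC. *FADS1* and *SREBF1* lie near 0 at D2 and below 0 from D2 to DE, *FADS2* and the elongases the reverse, and *ACLY* lies near 0 in DE against PSC.

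The order of the 10 genes by level per length changed between the stages. The place of a gene within a stage depends on the deposited length, which takes in the exons of all annotated transcripts. In PSC the mean was highest for *SCD* (74.8 ± 3.25 CPM per kilobase, SD, n = 2), followed by *ELOVL5* (38.4 ± 0.779), *FASN* (28.8 ± 0.381), *ELOVL6* (23.1 ± 0.579), *ACLY* (21.9 ± 0.140), *FADS2* (10.1 ± 0.184) and *SREBF1* (6.32 ± 0.00589). *FADS1* (4.71 ± 0.518) and *ACACA* (4.46 ± 0.0216) overlapped, and *ACACB* was the lowest (0.615 ± 0.0405). At D2 *SCD* was still the highest, at 36.0 ± 5.34, and no neighbors in the order overlapped. In DE *ELOVL5* (24.9 ± 1.71) and *ACLY* (22.3 ± 0.854) stood above *SCD* (20.2 ± 0.425) and *FASN* (17.3 ± 0.412), followed by *ELOVL6* (13.6 ± 0.821) and *FADS2* (4.49 ± 0.684). *FADS1* (2.63 ± 0.0811), *SREBF1* (2.43 ± 0.335) and *ACACA* (2.05 ± 0.399) came next, where the libraries of *SREBF1* overlapped with those of both *FADS1* and *ACACA*, and *ACACB* remained the lowest at 0.172 ± 0.0116.

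Cholesterol synthesis and uptake genes, many of them SREBP2 targets, were lower in larger number than they were higher, as were the 10 genes. Of 22 tested, 18 were lower and 0 higher at D2 against PSC, and 18 were lower and 2 higher in DE against PSC, with a median log2 fold change of -1.27. Of all genes tested, 24.0% were lower and 25.9% higher at D2, and 32.7% were lower and 35.1% higher in DE. *HMGCS1*, an early enzyme of the route, was at 888.7 and 847.7 CPM in PSC, 281.1 and 329.2 CPM at D2, and 145.3 and 155.8 CPM in DE, 5.77-fold lower in DE than in PSC (edgeR adjusted p = 1.6e-17). *CYP51A1* fell by 2.13 on the log2 scale (edgeR adjusted p = 7.1e-05), from levels of 2.45 and 2.77 CPM. *EBP* and *TM7SF2*, enzymes of the later sterol steps, were the 2 that rose, by 1.16 and 0.70.

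Genes of mitochondrial fatty acid oxidation were mostly in the other direction in DE against PSC. Of 21 tested, 14 were higher and 3 lower in DE than in PSC, with a median of 0.59, and the background was 35.1% of all genes higher. At D2 against PSC, 8 were higher and 5 lower, with a median of 0.06, beside 25.9% and 24.0% of all genes tested. *SLC25A20*, the carnitine carrier, was at 2.45 and 2.19 CPM in PSC, 4.99 and 4.53 CPM at D2, and 7.12 and 9.39 CPM in DE, a log2 fold change of 1.83 (edgeR adjusted p = 5.7e-08). *ACADS*, the short-chain acyl-CoA dehydrogenase, rose by 2.12 from levels under 1 CPM (edgeR adjusted p = 1.4e-05). The entry enzyme *CPT1A* went against the list, from 10.5 and 11.4 CPM in PSC to 5.54 and 4.76 CPM in DE (log2 fold change -1.09, edgeR adjusted p = 3.6e-06), and its brain-enriched relative *CPT1C* fell by 1.48 (edgeR adjusted p = 1.1e-07). The difference between the lists was not tested.

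**Figure D4:**
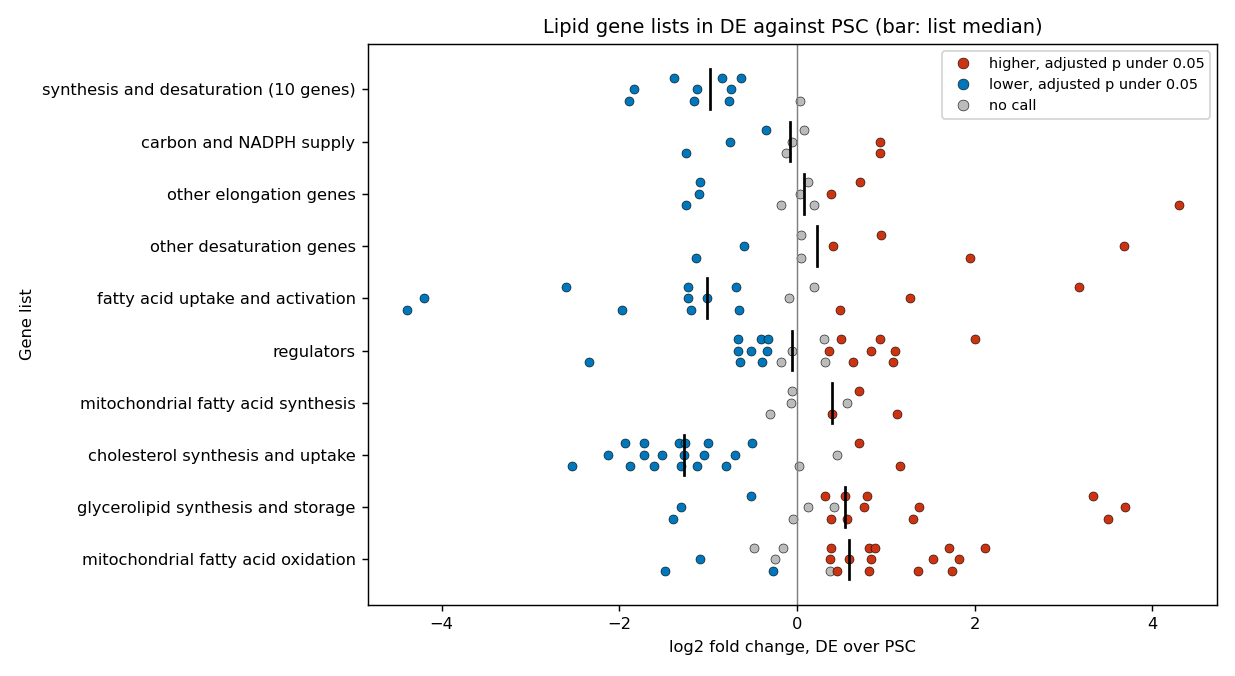
Log2 fold change in DE over PSC (x axis) of each gene tested in the 10 genes of synthesis and desaturation and in the other lipid lists (y axis), with 1 point per gene and a bar at the median of each list. The bars lie at -0.98 for the 10 genes, -1.27 for cholesterol synthesis and uptake and 0.59 for mitochondrial fatty acid oxidation.

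For the genes named here, the nearest of 143 other lipid genes was found by the Euclidean distance between log2 values of the 6 libraries, each gene centred on its mean. *ELOVL5* and *ELOVL6* were nearest to each other, at 0.174. Among the cholesterol genes, *SQLE* was nearest to *ACACB* (0.192), *MVD* to *ACACA* (0.211), *DHCR7* to *FASN* (0.212), *SC5D* to *FADS2* (0.306) and *STARD4* to *SREBF1* (0.479). *SREBF2* was nearest to *FADS1* (0.276), and *HADH*, an enzyme of fatty acid oxidation, to *ACLY* (0.237). The 6 points of each gene share their libraries and depth, and the distances are a description.

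The study took genes with a fold change of at least 2, after removal of those at a TPM of 2 or less. A rule of this kind was also applied to TPM, computed here from the counts and gene lengths. Mean TPM + 0.1 had to differ by 2-fold or more, and the mean TPM had to pass 2 in either stage. The addition of 0.1 is that of the study's expression plot, and the use of means and of either stage was chosen here. By this rule 2 of the 10 genes, *SCD* and *SREBF1*, were lower in DE than in PSC (background 13.1% lower), 1, *SREBF1*, was lower in DE than at D2 (background 11.2%), and 0 were lower at D2 than in PSC (background 6.69%). Without DE replicate 2, 1 gene was lower in DE, and without PSC replicate 1 or D2 replicate 2, 1 was lower at D2. Genes encoded by mtDNA held 64% and 62.1% of the TPM in PSC and 52.5% and 54% in DE, and the median log2 ratio of all genes passing the limit was 0.32 in DE against PSC. When those genes were left out of the TPM, 5 of the 10 were lower in DE and 3 at D2. The edgeR fit with a fold change of at least 2 gave the same counts. Without mtDNA-encoded genes the median log2 ratio was -0.11 in DE against PSC and -0.02 at D2. The genes passing the limit then numbered 17864 and 18113, against 13476 and 13058 with mtDNA-encoded genes kept. With these kept, 9 of the 10 genes passed the limit. No background share is given for the setting without mtDNA-encoded genes.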

How the data were processed

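RNA-seq reads had been aligned to GRCh38 (hg38) with HISAT2 2.1.1 and counted with featureCounts. The authors deposited raw counts for each gene symbol with the gene's length. The annotation, the strand setting and the treatment of reads with several positions are not given in the sources used here. Of 59050 symbols, 21221 had no count in any library.

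Counts were compared with edgeR 4.0.16 in R 4.3.3: filterByExpr, TMM factors (0.926 to 1.06), glmQLFit and glmQLFTest in a joint fit of 6 libraries, with Benjamini-Hochberg adjustment over 18126 genes. This left 3 residual degrees of freedom, and the biological coefficient of variation common to all genes was 0.0734. A call required an adjusted p below 0.05. The code was checked on simulated data. Replicates of a stage differed by more than counting noise, at 3.74 (PSC), 3.71 (D2) and 7.87 (DE) times the chi-square that counting alone gives.

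The 10 genes, the gene lists and the tests were chosen with earlier results of these data known. Besides the 10 genes, the text names *SREBF2*, *SCAP*, *INSIG1*, *SLC25A1*, *ACSS2*, *ME1*, *ELOVL2*, *SCD5*, *FADS3*, the genes around the FADS cluster, markers, nearest genes by course, and from each list the 2 largest rises and falls in DE that were called, had the same direction in all 4 library pairs and reached 1 CPM. *MLYCD* lies outside this rule and was named after its values were seen. Some genes that this rule names are not reported here. Alternatives were DESeq2 1.42.0, other scalings and filters, 2 stages alone, a replicate block, other TPM settings, and each library left out in turn. Tables and figures used Python 3.11.15, pandas 2.3.3 and matplotlib 3.10.9.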

Additional observations from a re-analysis of the deposited data

How the results depend on the processing

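The number of the 10 genes called stayed within 1.5 times its value under each alternative that was run. With each library left out in turn they ranged from 6 to 8 at D2 against PSC, 5 to 7 in DE against D2 and 9 in each case in DE against PSC, and with a fold of at least 2 from 2 to 3, 1 in each case, and 4 to 5. Scaling by library size alone left 1 of 10 with a fold of at least 2 at D2, and upper-quartile scaling gave 2 in DE against D2. These scalings put the median of all genes at 0.13 at D2 and 0.11 in DE against PSC (library size), and at -0.19 in DE against D2 and -0.15 in DE against PSC (upper quartile). Upper-quartile scaling turned the value of *ACLY* in DE against PSC to -0.15. DESeq2 called 1 gene of mitochondrial fatty acid synthesis and 8 of glycerolipid synthesis and storage. The TPM rule gave 3 genes at D2 and 5 in DE against PSC without mtDNA-encoded genes, and 1 in DE with a pseudocount of 1, and ranged from 0 to 1 and from 1 to 3 with each library left out. Without mtDNA-encoded genes the median log2 TPM ratio of genes passing the limit was -0.02 at D2 and -0.11 in DE against PSC. With those genes kept it was 0.12 and 0.32. No background share is given for these other TPM settings. *FADS2* in DE against D2 was 0.01 without DE replicate 2 and -0.31 without DE replicate 1. *TMEM258* in DE against PSC was 0.01 with DESeq2, 0.07 with library size, 0.00 without a filter, and with each library left out from -0.25 to 0.22, including 0.03 without PSC replicate 1. The cause of these changes was not tested. *CYP51A1* and *LIPE* were under 3 CPM in every library, and *SCD5* had 5 and 10 counts in PSC.

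Replicate numbers are shared by the stages. The deviations of libraries with the same number from their stage means correlated at -0.0109, -0.0383 and -0.0432. No shared deviation by number was therefore seen, which cannot tell whether such libraries were cultured in parallel. With the number as a replicate block, 7, 7 and 9 of the 10 genes were called, and 3, 1 and 5 with a fold of at least 2, as without it.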

Other observations

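Of 15 genes of fatty acid uptake and activation tested, 10 were lower and 3 higher in DE than in PSC, where 32.7% of all genes tested were lower and 35.1% higher. Their median log2 fold change was -1.01. *CD36*, a fatty acid transporter, had 55 and 92 counts in PSC, 2 and 6 at D2, and 4 and 4 in DE, and *ACSL6*, an acyl-CoA synthetase, had 23 and 27 counts in PSC, 16 and 11 at D2, and 3 and 0 in DE. *ACSL1*, another synthetase, rose from 2.54 and 2.64 CPM in PSC and 1.71 and 1.88 CPM at D2 to 24.7 and 22.6 CPM in DE (log2 fold change 3.18, standard error 0.177, edgeR adjusted p = 3e-15). *SLC27A1*, a fatty acid transport protein, rose by 1.27 (edgeR adjusted p = 0.0004).

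Of 17 glycerolipid genes tested, 11 rose and 3 fell in DE against PSC (median 0.54), beside the same 35.1% and 32.7% of all genes, and DESeq2 called 6 higher and 2 lower. *PLIN3*, a lipid droplet coat protein, rose from 1.84 and 1.67 CPM in PSC to 8.99 and 6.99 CPM at D2 and 24.1 and 21.0 CPM in DE (log2 fold change 3.69, edgeR adjusted p = 1.6e-15). *AGPAT3*, an acyltransferase, rose from 2.72 and 2.51 CPM to 31.7 and 27.1 CPM in DE (3.50, edgeR adjusted p = 1.2e-16). *GPAM*, the mitochondrial acyltransferase that opens glycerolipid synthesis, went the other way, from 93.5 and 105.0 CPM in PSC to 31.8 and 32.8 CPM at D2 and 40.0 and 40.6 CPM in DE (-1.30, edgeR adjusted p = 3e-12). *LIPE*, hormone-sensitive lipase, was at -1.39 (edgeR adjusted p = 0.00866), a call lost with DESeq2, without PSC replicate 2 (-0.99) and without DE replicate 2 (-0.81).

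Mitochondrial fatty acid synthesis, a separate route that makes the precursor of lipoic acid, had 3 of 7 genes higher and 0 lower in DE, with a median of 0.40, a share near the 35.1% of all genes that were higher. *HSD17B8* was at 1.13 (edgeR adjusted p = 0.0183) and *OXSM*, the ketoacyl synthase of this route, at 0.70 (edgeR adjusted p = 0.013). DESeq2 called neither. *HSD17B8* was not called without PSC replicate 2 (1.12) or DE replicate 1 (0.93). *OXSM* was not called without PSC replicate 1 (0.66), without DE replicate 2 (0.64) or with upper-quartile scaling (0.53).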
